A study of Homo sapiens with 8 samples.

Results

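H/ACA box snoRNAs were examined in H1 cells, a human embryonic stem cell line that is long established, in which EXOSC3, a core subunit of the RNA exosome, could be depleted. The members were taken by name alone, as every gene whose symbol is SNORA followed by a digit, which gave 106 of 26646 genes (symbols, plus entries without one) in the deposited tables. Of the 106 members, 96 reached the minimum mean level of 1 FPKM over the 8 libraries, 8 lay below it and 2 (SNORA46 and SNORA50A) had a failed estimate in at least 1 table. FPKM is the number of fragments, scaled to transcript length and library depth. Of the 96 measured members, 62 had a value above 0 in all 8 libraries and 34 were listed at 0 in 1 or more.

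One line carried a short hairpin RNA targeting EXOSC3 (shEXOSC3), the other a hairpin that silences nothing (shNS), both switched on by doxycycline, and both lines grew without feeder cells in medium with puromycin. Each line was sequenced without and with doxycycline at day 5 and day 7, so 8 groups held 1 library each. Whether a line was 1 clone, and which cells express each hairpin, is not stated in the sources used here. The RNA was total RNA depleted of ribosomal RNA, and values came as 4 tables, 1 per line and day, in which an untreated library stands beside its doxycycline partner. With 1 library per group no difference has a replicate check. In RNA from whole cultures, fewer cells of a type and less RNA per cell cannot be told apart.

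H/ACA box snoRNAs fold into a pair of hairpins joined by a hinge that holds the H box, and end shortly after an ACA box. With the proteins dyskerin (DKC1), NHP2, NOP10 and GAR1 they form particles that convert chosen uridines of ribosomal and spliceosomal RNA into pseudouridine, and SNORA73 (U17) instead serves in cleavage of the ribosomal RNA precursor. Most human H/ACA snoRNAs are cut out of introns of host genes, and the ends of the excised RNA are trimmed by nucleases, among which the nuclear exosome is a known one.

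The sequences of 8 members that the results turn on are shown to let the boxes and the likeness of family members be seen. They are GENCODE 29 transcripts on GRCh38, written 5′ to 3′ in the DNA alphabet. SNORA2A (chr12:48656648-48656782, minus strand), SNORA2B (chr12:48667457-48667593, minus strand) and SNORA2C (chr12:48654382-48654518, minus strand) all lie within KANSL2. SNORA1 (chr11:93732004-93732133, minus strand) and SNORA32 (chr11:93730979-93731099, minus strand) lie within TAF1D. SNORA55 lies within PABPC4 (chr1:39567374-39567508, minus strand), SNORA33 within RPS12 (chr6:132817219-132817348, plus strand) and SNORA73B within SNHG3 (chr1:28508559-28508762, plus strand). Capitals mark the ACA that stands 3 bases before the 3′ end, where there is one, and the H box pattern ANANNA where it starts once between 40% and 60% of the length.
SNORA2A: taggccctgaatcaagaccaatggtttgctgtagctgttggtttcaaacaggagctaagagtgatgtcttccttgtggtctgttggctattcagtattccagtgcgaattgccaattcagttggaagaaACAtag
SNORA2B: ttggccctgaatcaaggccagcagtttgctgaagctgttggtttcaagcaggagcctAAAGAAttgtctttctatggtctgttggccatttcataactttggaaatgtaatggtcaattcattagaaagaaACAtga
SNORA2C: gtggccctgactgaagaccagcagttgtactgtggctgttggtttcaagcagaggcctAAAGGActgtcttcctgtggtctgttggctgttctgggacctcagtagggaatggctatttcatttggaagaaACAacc
SNORA1: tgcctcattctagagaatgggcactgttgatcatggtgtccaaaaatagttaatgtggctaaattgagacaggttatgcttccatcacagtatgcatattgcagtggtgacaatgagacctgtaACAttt
SNORA32: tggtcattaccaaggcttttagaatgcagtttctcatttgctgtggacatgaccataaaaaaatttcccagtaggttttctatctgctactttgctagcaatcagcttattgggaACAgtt
SNORA55: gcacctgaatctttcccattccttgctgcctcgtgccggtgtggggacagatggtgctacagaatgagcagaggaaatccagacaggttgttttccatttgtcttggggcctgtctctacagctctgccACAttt
SNORA33: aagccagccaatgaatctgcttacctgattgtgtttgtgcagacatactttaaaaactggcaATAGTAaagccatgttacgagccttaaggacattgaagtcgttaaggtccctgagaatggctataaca
SNORA73B: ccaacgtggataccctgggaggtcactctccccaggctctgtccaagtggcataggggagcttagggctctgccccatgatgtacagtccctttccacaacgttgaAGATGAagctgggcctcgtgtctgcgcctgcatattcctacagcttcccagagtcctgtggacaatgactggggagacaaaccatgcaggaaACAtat

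The annotated sequences carried the boxes that give the class its name. Searched on the transcript strand only, ACA stood exactly 3 bases before the annotated 3′ end in 81 of 106 members (76.4%), against 3 of 233 C/D box snoRNA entries (1.29%). An ANANNA pattern started in the central window in 96 of 106 members (90.6%) and in 83 of the 233 C/D entries (35.6%), and both features together were found in 75 members and in 0 C/D entries. Members were 121 to 249 bases long with a median of 134, and 100 of them measured 120 to 160 bases. Identity between members that share a number ran from 61.0% for SNORA50A and SNORA50C to 100% for SNORA59A and SNORA59B, and 15 members were at least 90% identical to another member. Values of such near-identical pairs (SNORA7A with SNORA7B at 98.6%, SNORA36A with SNORA36C at 97.0%, SNORA80A with SNORA80B at 91.9%, SNORA14A with SNORA14B at 91.1%, SNORA71B with SNORA71D at 90.3%) are uncertain, since reads that match both can be assigned to either.

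The targeted gene was lower in the shEXOSC3 libraries with doxycycline: its main EXOSC3 transcript stood at 30.7% of the untreated level on day 5 and 36.2% on day 7, and at 103% and 99.5% in shNS. The stem cell markers matched the label, with 9 of 10 measured, and POU5F1 ran from 139 to 171 FPKM. Of the markers of other cell types, 0 of 7 mesendoderm and endoderm genes reached 1 FPKM, 1 of 5 trophectoderm genes did (KRT7), 1 of 4 neuroectoderm genes did (TUBB3), and 4 of 7 fibroblast genes did, with COL3A1 at 0.05 FPKM or less and DCN and LUM at 0 in all 8 libraries. The summed fibroblast list ran from 98.4 to 225 FPKM, of which THY1 alone gave 74.1 to 197 FPKM. Read totals are unknown, but most low FPKM of members of equal length were whole multiples, within 0.05, of a step taken as the value of 1 fragment (66.7% to 100% of them by library). For the members of 132 bases that step was 7.65 and 7.60 FPKM in the untreated and doxycycline libraries of shEXOSC3 on day 5 and 6.41 and 6.95 on day 7. In shNS it was 5.69 and 3.58 FPKM on day 5 and 9.07 and 6.80 on day 7, so a member at 20 FPKM stood for only a few fragments. By these steps the median member had a mean of 10.4 fragments per library on day 5 and 22.8 on day 7.

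The most abundant member differed between the days. SNORA73B had 15757 FPKM untreated and 12137 FPKM with doxycycline in shEXOSC3 on day 5, and 23373 and 22898 FPKM in shNS. On day 7 the same snoRNA had 2583 and 2540 FPKM in shEXOSC3 and 2609 and 2742 FPKM in shNS. The day 5 libraries were thus the high ones in both lines, and SNORA73B alone took 40.1% to 53.2% of all H/ACA FPKM there. SNORA49, encoded in EP400, showed the opposite order, with 263 and 469 FPKM in shEXOSC3 and 834 and 846 FPKM in shNS on day 5, and 9279 and 10554 FPKM in shEXOSC3 and 10060 and 7695 FPKM in shNS on day 7. SNORA57, at 1742 to 2688 FPKM on day 5 and 42.2 to 83.1 FPKM on day 7, went with SNORA73B, and SNORA62, the E2 RNA from an intron of RPSA, at 45.1 to 81.2 FPKM on day 5 and 2482 to 3658 FPKM on day 7, went with SNORA49. Large differences between days were not particular to these 4. The log2 levels of the 2 days lay at least 1 apart for 81 of the 96 measured members in untreated shEXOSC3 and for 72 in untreated shNS. The share over all genes was not taken. The tables of the days were normalized separately, so the factor between days is not a measured change in the cells.

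**Figure D1:**
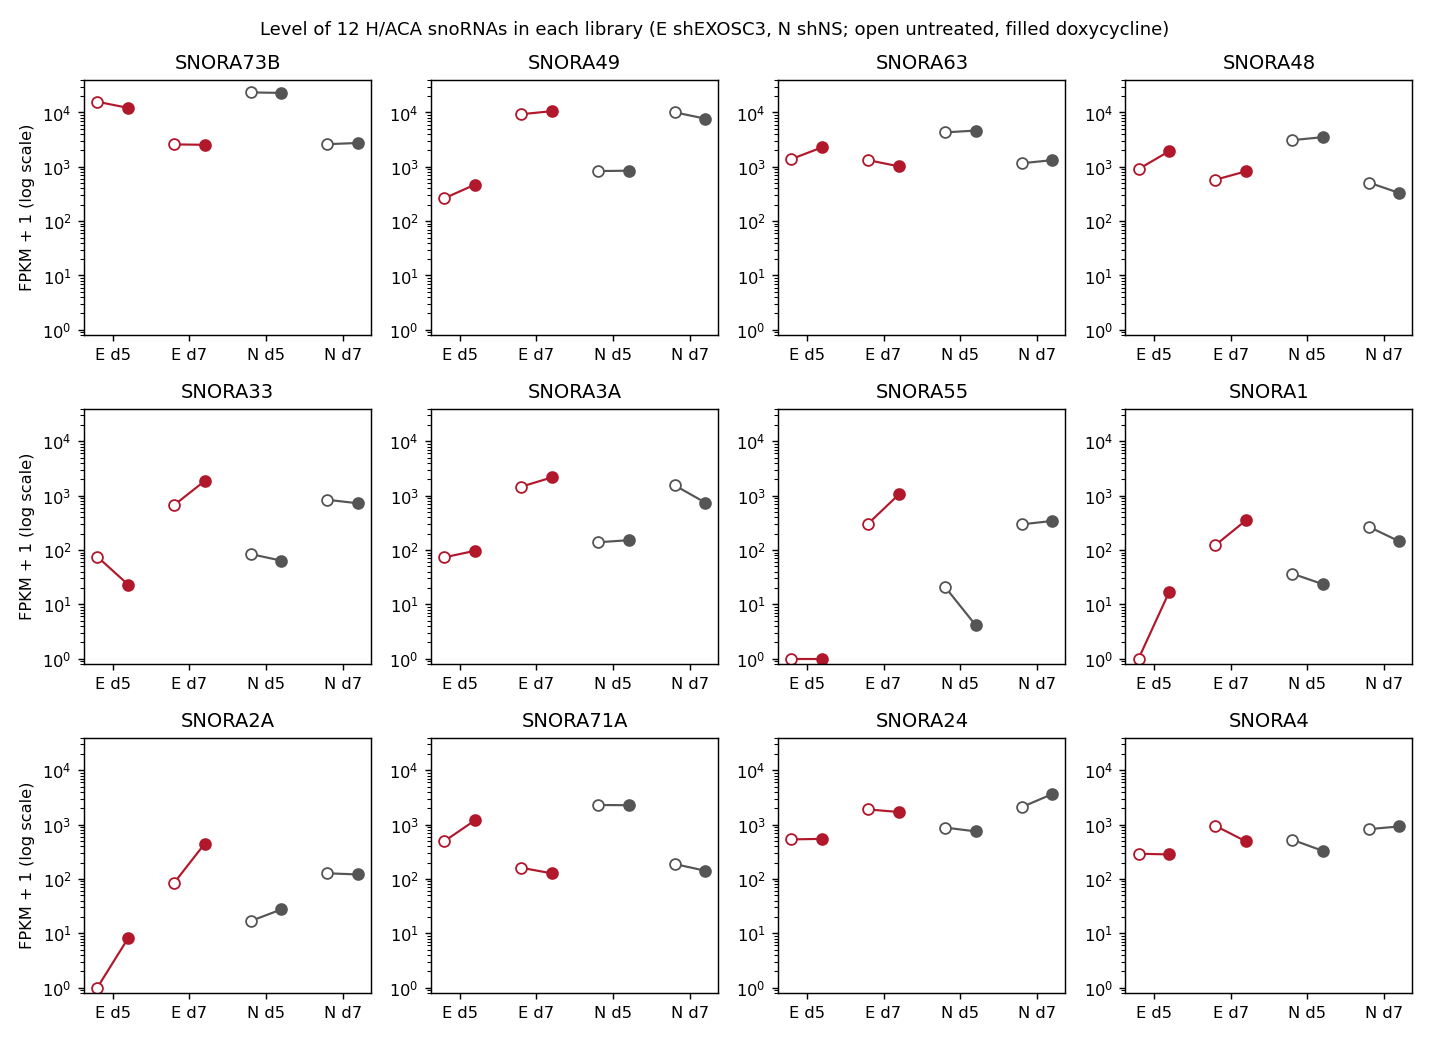
FPKM + 1 (log scale) of 12 members in each library, with open circles for untreated and filled circles for doxycycline libraries joined within a table, in shEXOSC3 (E, red) and shNS (N, grey) on days 5 and 7 (d5, d7). SNORA73B lies between 12137 and 23373 FPKM on day 5 and between 2540 and 2742 on day 7, SNORA49 is low on day 5 and high on day 7, and SNORA1 and SNORA2A are listed at 0 in the untreated shEXOSC3 library of day 5.

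The difference between the days followed base composition in part. GC content of the 96 measured members ran from 32.5% (SNORA40) to 72.4% (SNORA78). In untreated shNS the median log2 level on day 7 minus day 5 was 2.62 in the 32 members of lowest GC content, 1.34 in the middle 32 and -1.08 in the 32 of highest GC content. In untreated shEXOSC3 the medians were 3.90, 2.26 and -0.11. Across the 96 members the Pearson correlation of the day difference with GC content was -0.39 in untreated shNS and -0.44 in untreated shEXOSC3, where all points of a plot share the same 2 libraries. No such relation was seen for the doxycycline ratios: the log2 ratio of doxycycline over untreated in shEXOSC3 less the shNS ratio had a correlation of -0.01 with GC content on day 5 and of 0.02 on day 7. Of the 96 members, 75 had the same sign of day difference in both untreated lines, and the share over all genes was not taken.

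**Figure D2:**
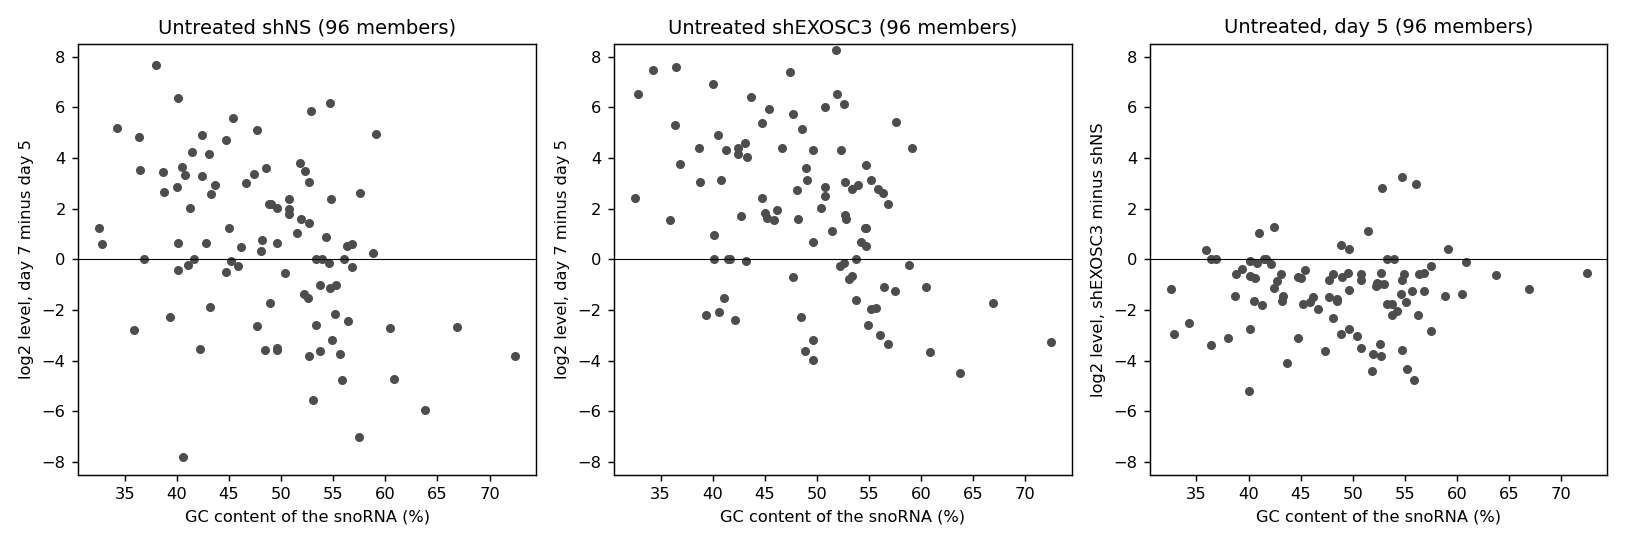
Each point is 1 of the 96 measured members, with its GC content (%) on the x axis and a difference of log2(FPKM + 1) between 2 untreated libraries on the y axis: day 7 minus day 5 in shNS, the same in shEXOSC3, and shEXOSC3 minus shNS on day 5. The first 2 plots slope down (Pearson -0.39 and -0.44), and in the third most points lie below 0 (median -1.15) at every GC content.

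On day 5 both libraries of shEXOSC3 stood apart from those of shNS. Summed over the measured members, FPKM were 29626 untreated and 30277 with doxycycline in shEXOSC3 on day 5, and 57320 and 56317 in shNS. Without SNORA73B the sums in shEXOSC3 were 13869 and 18140 FPKM, and in shNS 33947 and 33418. On day 7 the sums were 52072 and 62164 FPKM in shEXOSC3 and 55227 and 54451 in shNS, so there the doxycycline library of shEXOSC3 was the highest and the other 3 lay close together. By member, the median log2 level in shEXOSC3 minus that in shNS was -1.15 untreated and -0.67 with doxycycline on day 5, and -0.01 untreated and 0.29 with doxycycline on day 7. With doxycycline on day 5, 71 members were below and 16 above their shNS level, and on day 7, 31 were below and 62 above. These last values cross tables that were normalized separately. The same counts were not made over all genes, so they cannot tell the members from a shift of all genes.

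The first comparison asked whether H/ACA snoRNAs stood higher or lower with doxycycline in the line that loses EXOSC3. More members were higher than lower: of the 96, 20 had a log2 ratio, log2((doxycycline FPKM + 1)/(untreated FPKM + 1)), of at least 1 on day 5 in shEXOSC3, where 2.95% of all 12965 measured genes did, and 10 had one of at most -1 (2.36% of all genes). On day 7 the counts in shEXOSC3 were 25 higher (3.9% of all genes) and 5 lower (3.47%). The shNS line, which carries no hairpin against EXOSC3, had 5 higher (1.64%) and 9 lower (1.47%) on day 5, and 16 higher (3.83%) and 10 lower (3.12%) on day 7. Members thus passed this 2-fold rule more often than other genes in both directions and in both lines. For a member of 132 bases, however, 0 against 1 fragment already passes it, which puts members and longer genes on unequal terms. Among the 62 members above 0 in all 8 libraries, 11 were higher and 3 lower on day 5 in shEXOSC3, and 11 and 0 on day 7. In shNS these counts were 2 and 4 on day 5, and 4 and 6 on day 7. Counted by sign alone, 53 of all 96 members were above 0 (48.3% of all genes) and 30 below (48.7%) on day 5 in shEXOSC3. On day 7 there 66 were above (47.9%) and 28 below (50.3%). In shNS 40 members were above 0 (51.5%) and 50 below (46.0%) on day 5, and 47 above (47.9%) and 44 below (50.1%) on day 7. A ratio above 0 on both days was found for 37 members in shEXOSC3 (29.4% of all genes) and 19 in shNS (25.7%), and one below 0 on both for 9 (31.0%) and 22 (24.3%). The 2-fold rule was passed upwards on both days in shEXOSC3 by 5 members (0.316% of all genes), SNORA1, SNORA2A, SNORA11, SNORA37 and SNORA80A, and downwards by 2 (0.278%), SNORA35 and SNORA71C. The median ratio of the members was 0.21 on day 5 and 0.28 on day 7 in shEXOSC3, and -0.03 and 0.00 in shNS, against medians of all genes within 0.01 of 0 in each table. C/D box snoRNAs (159 measured), the guides of ribose methylation, had medians of 0.00 on both days in shEXOSC3, and of 0.00 and 0.27 in shNS, but they are shorter (median 81 bases) and 203 of the 233 with a sequence are no longer than the 94.5 bases by which the length correction shortens a transcript. Cajal body RNAs (24 measured), related guides for spliceosomal RNA, had medians of 0.07 on day 5 and -0.05 on day 7 in shEXOSC3, and 0.04 and -0.08 in shNS.

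Subtracting the shNS ratio from the shEXOSC3 ratio of that day gave the adjusted log2 difference. It was above 0 in 65 members (47.5% of all genes) and below 0 in 27 (50.3%) on day 5, and above 0 in 62 (48.1%) and below 0 in 33 (50.9%) on day 7. The medians over members were 0.34 on day 5 (quartiles -0.26 and 1.22) and 0.36 on day 7 (quartiles -0.46 and 1.18), beside 0.00 and -0.01 over all genes. Of the 7 fibroblast genes, the 4 measured were also above 0 on day 5, with a median of 0.58 (COL1A1 1.25, COL1A2 0.70, PDGFRB 0.46 and THY1 0.19). They had a median of 0.06 on day 7. COL3A1, DCN and LUM of the same list lay below the minimum level, so the list does not show that fibroblasts were present. The part of the 4 genes in the snoRNA values was not tested. The same difference was at least 1 in 29 members on day 5 (3.76% of all genes) and in 28 on day 7 (5.6%), and at most -1 in 12 (3.18%) and 16 (5.79%).

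**Figure D3:**
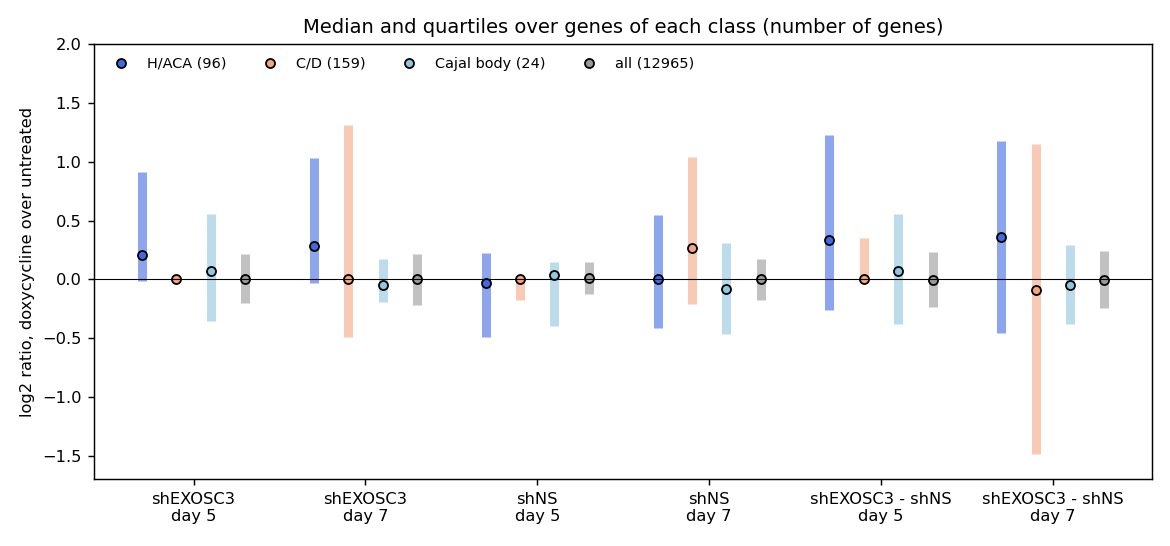
Median (circle) and quartiles (bar) over genes of the log2 ratio of doxycycline over untreated in each table, and of the shEXOSC3 ratio minus the shNS ratio, for H/ACA snoRNAs, C/D box snoRNAs, Cajal body RNAs and all measured genes. The H/ACA medians are 0.21 and 0.28 in shEXOSC3, -0.03 and 0.00 in shNS, and 0.34 and 0.36 for the difference, with bars wider than those of all genes.

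The direction was rarely shared by both days with a large size. Of the 96 members, 39 had an adjusted difference above 0 on both days (25.0% of all genes) and 6 below 0 on both (27.9%). At the 2-fold rule 5 members were higher on both days (0.602% of all genes): SNORA1, SNORA2A, SNORA55, SNORA37 and SNORA60. Another 2 were lower on both days (0.54%), SNORA36B and SNORA71C, and 11 passed it in opposite directions (1.13%). Across the 96 members the Pearson correlation of the day 5 and day 7 differences was -0.12, and among the 23 members with a mean of at least 20 fragments on each day it was also -0.12. Of those 23, 13 were above 0 on both days, 1 (SNORA12) was below 0 on both, and 0 passed the 2-fold rule on both.

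The members higher on both days had few fragments on day 5. SNORA1 was listed at 0 FPKM untreated and at 16.0 FPKM with doxycycline in shEXOSC3 on day 5, and at 36.0 and 22.6 FPKM in shNS. On day 7 SNORA1 had 121 FPKM untreated and 351 FPKM with doxycycline in shEXOSC3, and 267 and 143 FPKM in shNS. Doxycycline libraries of shEXOSC3 were the higher of their pair and those of shNS the lower of theirs, with a day 7 adjusted log2 difference of 2.42 (counting SE 0.58). SNORA2A was listed at 0 and 7.04 FPKM in shEXOSC3 and at 15.8 and 26.5 FPKM in shNS on day 5. On day 7 SNORA2A had 83.2 and 445 FPKM in shEXOSC3 and 126 and 120 FPKM in shNS, an adjusted difference of 2.48 (counting SE 0.64). The counting SE is the error that the numbers of fragments alone give, and holds no variation between cultures or library preparations.

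SNORA55 and SNORA60 passed on day 5 only through shNS. SNORA55 was listed at 0 in both shEXOSC3 libraries of day 5, and at 20.1 untreated and 3.16 FPKM with doxycycline in shNS. On day 7 SNORA55 had 305 and 1055 FPKM in shEXOSC3 and 296 and 342 FPKM in shNS, with an adjusted difference of 1.58 (counting SE 0.39). SNORA60, encoded in SNHG11, was also listed at 0 in both shEXOSC3 libraries of day 5 and had 63.8 and 138 FPKM in shEXOSC3 and 57.4 and 55.4 FPKM in shNS on day 7. SNORA37 rested on means of 5.22 fragments per library on day 5 and 4.72 on day 7. It had 8.26 and 24.6 FPKM in shEXOSC3 and 36.9 and 42.5 FPKM in shNS on day 5, and 13.9 and 67.6 FPKM in shEXOSC3 and 68.6 and 7.35 FPKM in shNS on day 7. Of the 2 members lower on both days, SNORA71C had 105 and 39.2 FPKM in shEXOSC3 and 127 and 111 FPKM in shNS on day 5. On day 7 SNORA71C had 44.1 and 5.98 FPKM in shEXOSC3, and 0 untreated and 17.6 FPKM with doxycycline in shNS. SNORA36B had at most 25.2 FPKM in any library and was listed at 0 in 2 of the 8.

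The best counted members lay above 0 more often than below on both days. The following members were chosen after their values were seen, as those with a mean of at least 20 fragments per library on that day and an adjusted difference beyond 2 counting SE. On day 5, 32 members had that many fragments, with a median adjusted difference of 0.32 and a median counting SE of 0.52. Of the 32, 26 were above 0, and 10 lay above and 1 below 0 by more than 2 counting SE. Among the 8 other short RNAs of the same length range with as many fragments on day 5, 0.0% lay above and 0.0% below by that rule. On day 7, 48 members had a median adjusted difference of 0.51 and a median counting SE of 0.36, of which 35 were above 0, and 16 lay above and 6 below by more than 2 counting SE. Of 13 other short RNAs on day 7, 3 (23.1%) lay above and 2 (15.4%) below, so RNAs outside the class passed the same rule there. By sign, SNORD15B, SNORD97, SCARNA11, SCARNA18 and MIR3652 of the 13 were below 0 on day 7 and the others above. SNORD10, SNORD97 and RNU6ATAC of the 8 were above 0 on day 5 and the others below. Over all genes, 47.5% were above 0 on day 5 and 48.1% on day 7.

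SNORA48, encoded in the translation factor gene EIF4A1, and SNORA49 were the 2 members above 0 by that measure on both days. SNORA48 had 908 and 1937 FPKM in shEXOSC3 and 3087 and 3511 FPKM in shNS on day 5, and 576 and 825 FPKM in shEXOSC3 and 513 and 328 FPKM in shNS on day 7. Its adjusted log2 differences were 0.91 (counting SE 0.17) and 1.16 (counting SE 0.33). For SNORA49 the differences were 0.81 (counting SE 0.32) on day 5 and 0.57 (counting SE 0.08) on day 7. In both, the doxycycline library of shEXOSC3 was the higher of its pair on each day. In shNS the 2 libraries of day 5 lay close together, and the doxycycline library of day 7 was the lower.

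Beside SNORA1, SNORA2A and SNORA55, other members that lay above 0 by that measure on day 7 came from hosts of several kinds. SNORA33, encoded in the ribosomal protein gene RPS12, had 669 FPKM untreated and 1864 FPKM with doxycycline in shEXOSC3, and 840 and 723 FPKM in shNS, an adjusted difference of 1.69 (counting SE 0.27). On day 5 the same SNORA33 had 74.6 and 22.2 FPKM in shEXOSC3 and 83.2 and 62.8 FPKM in shNS, a difference of -1.30 on a mean of 10.6 fragments. SNORA3A and SNORA3B, which share the host RPL27A, had day 7 differences of 1.63 and 1.13. For SNORA3A, at 1464 and 2166 FPKM in shEXOSC3 and 1557 and 745 FPKM in shNS, both lines contributed to that difference. SNORA14B had 1.76 on day 7, SNORA61 1.13, SNORA65 1.23 and SNORA22 1.38. SNORA22 also had the 1 difference of day 5 that lay below 0 by more than 2 counting SE, -1.89 (counting SE 0.33), from 836 and 282 FPKM in shEXOSC3 and 411 and 514 FPKM in shNS, so its 2 days pointed opposite ways.

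The 6 members below 0 by that measure on day 7 included abundant ones. SNORA24, which guides pseudouridines of 18S rRNA, had 1901 and 1704 FPKM in shEXOSC3 and 2094 and 3644 FPKM in shNS, an adjusted difference of -0.96 (counting SE 0.17). There the untreated libraries of both lines and the shEXOSC3 doxycycline library lay close together, and the shNS doxycycline library alone was high. SNORA4 had 950 and 491 FPKM in shEXOSC3 and 824 and 924 FPKM in shNS, a difference of -1.12 (counting SE 0.26). SNORA5C had -1.72, SNORA63 (the E3 RNA) -0.57, SNORA7A -0.39 and SNORA62 -0.28. SNORA63 was on the other side on day 5, with 0.60 (counting SE 0.15). On day 5 the largest positive differences among members with at least 20 fragments that lay beyond 2 counting SE were those of SNORA26 (2.21), encoded in the long noncoding RNA gene DANCR, SNORA64 (2.00), from RPS2, SNORA2C (1.48) and SNORA71A (1.30). SNORA64 had 72.7 and 303 FPKM in shEXOSC3 on day 5 and 1477 and 1528 FPKM in shNS, so its doxycycline library, though the higher of its pair, still lay far below both shNS libraries.

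**Figure D4:**
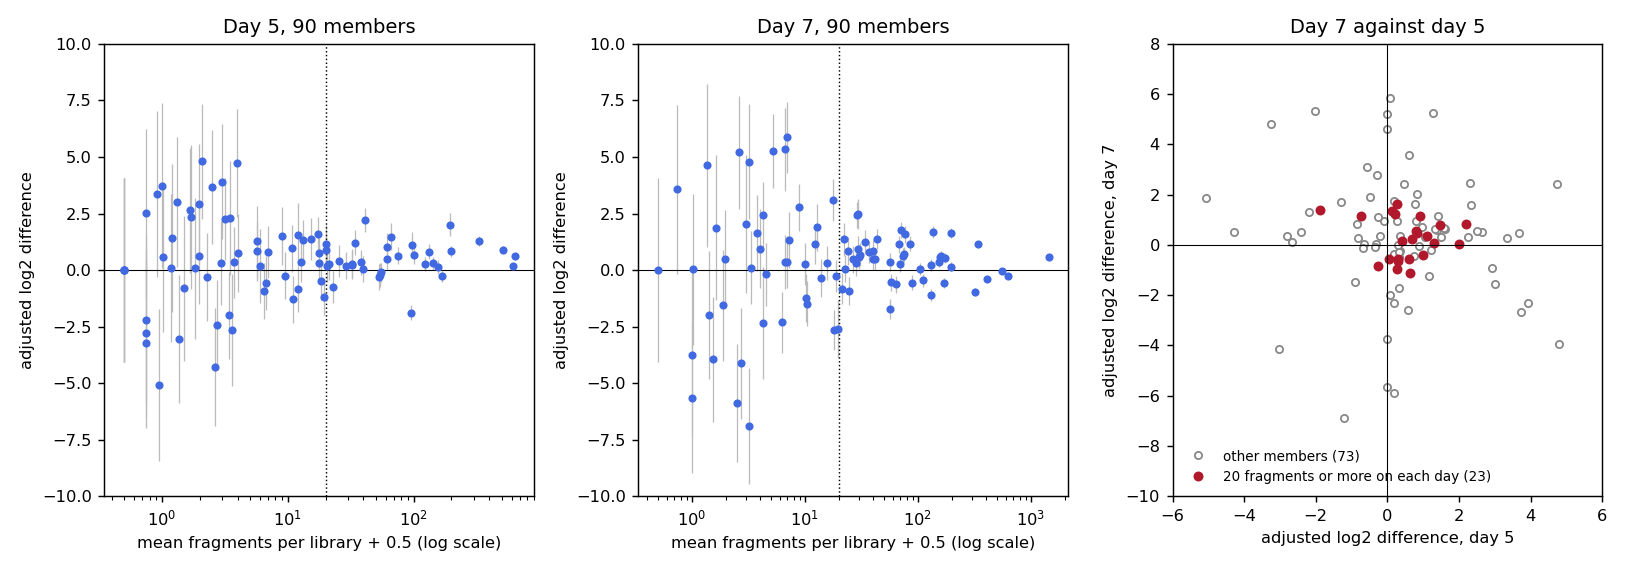
The first 2 plots give the adjusted log2 difference of the 90 measured members of at most 160 bases against their mean fragments per library (log scale) on days 5 and 7, with bars of 1 counting SE and a dotted line at 20 fragments. The third sets day 7 against day 5 for all 96 measured members, with the 23 well counted on both days in red. Values spread to both sides where fragments are few, and among the 23 members the day 5 values run from -1.89 (SNORA22) to 2.21 (SNORA26).

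limma called 0 of the 96 members and 0 of all 12965 genes (0% of all genes) at an adjusted p of 0.05, with the 4 within-table ratios as observations, shEXOSC3 against shNS and 2 residual degrees of freedom. The days stand in for replicates there, so the test measures a line difference against the spread between days. At an unadjusted p under 0.05 there were 11 members, 10 higher and 1 lower, where 4.23% of all genes had such a p. Fits without 1 of the 4 ratios leave 1 line with a single ratio, so whether that excess of higher members rests on 1 ratio cannot be told. Among the 11, SNORA2A had a mean difference of 2.39 (SE 0.38), SNORA25, encoded in TAF1D, 0.83 (SE 0.14) and SNORA21, from RPL23, 0.66 (SE 0.17). The 1 lower was SNORA71B with -1.20 (SE 0.19). The smallest adjusted p of a member, by limma with Benjamini-Hochberg adjustment, was 0.82. In the authors' deposited table of each line and day, 0 members were marked significant in a test of 1 library against 1 library. At a p under 0.05 in the authors' deposited table there were 3 of 84 tested members in shEXOSC3 on day 5 (3.57%, against 4.58% of all entries), 1 of 97 on day 7 (1.03%, against 5.1%), 0 of 91 in shNS on day 5 (against 4.17%) and 1 of 94 on day 7 (1.06%, against 6.32%). These shares lay under those of all entries in all 4 tables. The smallest q of a member there was 0.353 for SNORA32 in shEXOSC3 on day 5 (p of 0.00065 in the authors' deposited table), a snoRNA listed at 0 FPKM untreated and 10.2 FPKM with doxycycline.

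Members were next set beside the genes that encode them. For 84 measured members a host was found both from the loci in the tables and in GENCODE on the same strand, which gave 66 hosts. Each host, here and below, was its transcript of highest mean FPKM, and hosts with transcripts summed were not examined. Such a value need not follow the gene: for RPSA it was 67.3 FPKM in untreated shEXOSC3 on day 5 and 0.0114 FPKM on day 7. By these transcripts the hosts lay closer to 0 than the members. The median adjusted difference over hosts was -0.05 on day 5 and -0.06 on day 7, against 0.33 and 0.36 for their 84 members. A member lay above its own host in 57 of the 84 on day 5 and in 53 on day 7. In shEXOSC3 alone on day 7, 60 of the 84 members had a higher ratio than their host, and in shNS 45 of 84. Across the 84 members the Pearson correlation of member and host differences was 0.02 on day 5 and 0.09 on day 7, with several members sharing a host and all sharing the libraries. The median member had a mean of only 10.4 fragments per library on day 5 and 22.8 on day 7. Counting error of the members can widen their spread and lower such a correlation, and its part was not tested. By kind of host, the medians of members were 0.30 and 0.48 for 16 members in ribosomal protein genes (median of those hosts -0.37 and 0.03), 0.64 and 0.33 for 9 in translation factor genes (hosts -0.05 and -0.02), 0.27 and 0.26 for 15 in SNHG noncoding genes (hosts 0.21 and 0.14), and 0.31 and 0.43 for 44 in other genes (hosts -0.04 and -0.10).

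**Figure D5:**
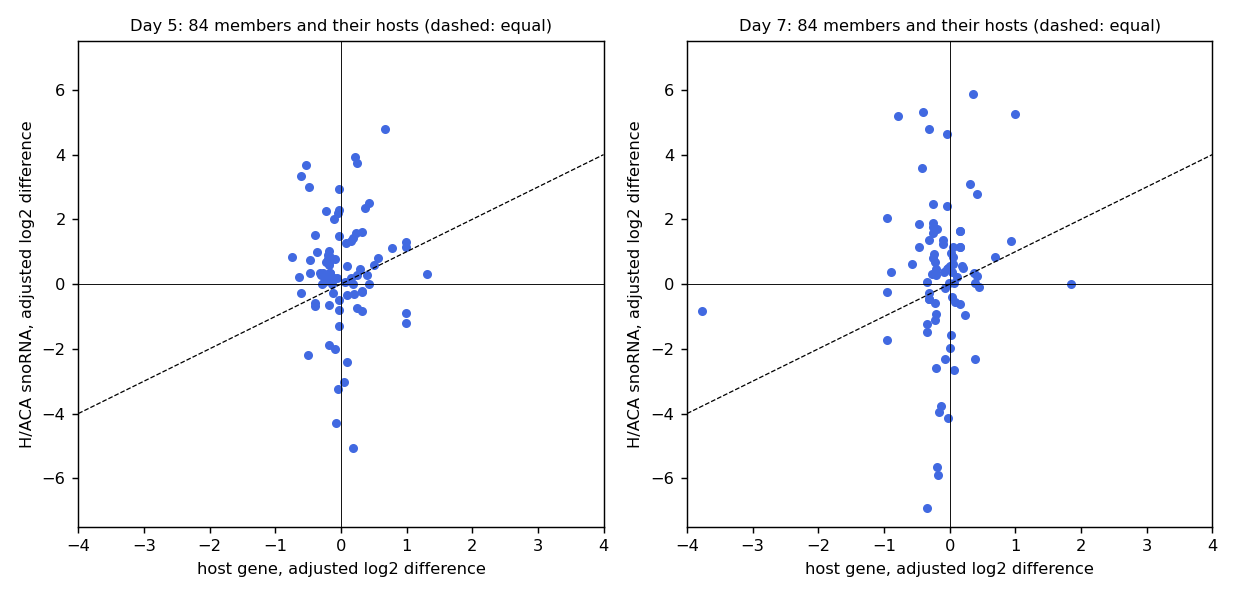
Adjusted log2 difference of each of 84 members (y axis) against that of the main transcript of its host gene (x axis) on days 5 and 7. The dashed line is where both are equal. Hosts have medians of -0.05 and -0.06, members spread from -6.91 (SNORA71C, day 7) to 5.86 (SNORA80E, day 7), and 57 and 53 of the 84 lie above the line.

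In hosts with several members, snoRNAs cut from the same transcript often had unlike values. Whether these differ beyond counting error was not tested, and some rest on few fragments. On day 5 SNORA1 had a mean of 3.49 fragments per library and SNORA32 of 1.18. TAF1D, which encodes a subunit of the RNA polymerase I factor SL1, holds 6 members by GENCODE. All 6 (SNORA1, SNORA8, SNORA18, SNORA25, SNORA32 and SNORA40) were above 0 on day 5, with a median of 0.92, and 4 of 6 were above 0 on day 7, with a median of 0.34. TAF1D itself had 49.2 and 51.1 FPKM in shEXOSC3 and 51.9 and 38.2 FPKM in shNS on day 5, and 111 and 85.1 FPKM in shEXOSC3 and 99.4 and 100.5 FPKM in shNS on day 7. Its adjusted differences were 0.49 and -0.39. The summed level of the 6 was 302 and 424 FPKM in shEXOSC3 and 685 and 697 FPKM in shNS on day 5, and 7852 and 8864 FPKM in shEXOSC3 and 8377 and 8524 FPKM in shNS on day 7. SNORA18, the most abundant of the 6 on day 7, had 3917 and 3941 FPKM in shEXOSC3 and 3910 and 4096 FPKM in shNS, so its 4 libraries lay close together while SNORA1 from the same host differed.

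KANSL2, the gene of a subunit of the NSL acetyltransferase complex, holds SNORA2A, SNORA2B and SNORA2C. Its own level was 33.5 to 39.5 FPKM on day 7 and 32.3 to 39.2 FPKM on day 5. On day 7 all 3 members were above 0, SNORA2A by 2.48 (counting SE 0.64), SNORA2B by 1.89 (counting SE 1.03) and SNORA2C by 0.79 (counting SE 0.48). SNORA2B differed mainly through shNS, at 107 and 117 FPKM in shEXOSC3 and 64.0 and 18.0 FPKM in shNS. SNORA2C had 54.0 and 154 FPKM in shEXOSC3 and 447 and 452 FPKM in shNS on day 5, a difference of 1.48 (counting SE 0.61). With 77.4% identity between SNORA2A and each of the other two, these copies are not near-identical.

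The other hosts with at least 3 members gave mixed signs. In EIF4A2 all 3 members (SNORA4, SNORA63 and SNORA81) were above 0 on day 5 and 1 of 3 on day 7, with host differences of -0.19 and -0.23. In SNHG12, 1 of 3 (SNORA44, and not SNORA16A or SNORA61) was above 0 on day 5 and 3 of 3 on day 7, and SNORA61 went from 2504 to 3593 FPKM in shEXOSC3 and from 2636 to 1726 FPKM in shNS on day 7. In TBRG4 the 3 SNORA5 members were all above 0 on day 5 and 1 of 3 was on day 7. The main TBRG4 transcript stood at 36.2 to 42.9 FPKM on day 5 and at 3.52 to 8.74 FPKM on day 7. Other TBRG4 transcripts were not added. In SNHG17, 2 of 4 SNORA71 members were above 0 on day 5 and 1 of 4 on day 7. The main SNHG17 transcript stood at 1.39 to 6.53 FPKM. SNORA71A had 494 and 1203 FPKM in shEXOSC3 and 2293 and 2274 FPKM in shNS on day 5, and 160 and 126 FPKM in shEXOSC3 and 187 and 141 FPKM in shNS on day 7.

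The genes whose products build and trim the particles were measured in full, and few of them passed the 2-fold rule. By main transcripts the 4 core protein genes had median adjusted differences of 0.02 and -0.12 on days 5 and 7. With transcripts summed the medians were -0.21 and -0.09, and either way 0 passed the 2-fold rule. DKC1, the pseudouridine synthase of the particle and the host of SNORA56, had summed levels of 76.0 and 71.8 FPKM in shEXOSC3 and 76.0 and 70.2 FPKM in shNS on day 5, and 122 and 86.8 FPKM in shEXOSC3 and 124 and 116 FPKM in shNS on day 7. By main transcripts NOP10 had differences of -0.48 and 0.28, NHP2 of 0.12 and 0.16, and GAR1 of 0.20 and -0.78. With transcripts summed GAR1 was below 0 on both days, at -0.45 and -0.57. Of the 8 assembly genes, 0 passed on day 5 and 1 on day 7. That 1 was WRAP53, the Cajal body protein, whose summed transcripts differed by -0.09 and 0.23. Of the 10 genes of 3′ end processing, 0 passed on day 5 and 1 on day 7, the deadenylase gene PARN, at 2.30 by its main transcript and -0.09 with transcripts summed. Of the 12 stand-alone pseudouridine synthase genes, 0 passed on day 5 and 1 on day 7, PUS7L, at 2.15 by its main transcript and -0.22 summed. The nuclear exosome nuclease EXOSC10 had -0.01 and 0.22 with transcripts summed, and the helicase MTREX -0.20 and 0.01. Of all genes, 3.76% passed upwards and 3.18% downwards on day 5, and 5.6% and 5.79% on day 7.

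Telomerase RNA (TERC), which carries an H/ACA domain but is transcribed from its own promoter, had 358 and 454 FPKM in shEXOSC3 and 352 and 356 FPKM in shNS on day 5. On day 7 TERC had 58.5 and 78.2 FPKM in shEXOSC3 and 67.7 and 57.8 FPKM in shNS. In both tables of shEXOSC3 the doxycycline library was the higher, with adjusted differences of 0.33 and 0.64.

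Several members differed with doxycycline in the line without a hairpin against EXOSC3. In shNS 3 members were at least 2-fold higher on both days (0.278% of all genes), SNORA11, SNORA71B and SNORA71E, and 1 was lower on both (0.208%), SNORA56. SNORA71B had 15.4 and 35.6 FPKM on day 5 and 32.8 and 86.1 FPKM on day 7 in shNS, and 34.6 and 41.2 FPKM and 75.4 and 69.1 FPKM in shEXOSC3. SNORA56 had 24.1 and 11.2 FPKM on day 5 and 114 and 46.8 FPKM on day 7 in shNS. In shEXOSC3 SNORA56 had 36.3 and 3.51 FPKM on day 5 and 2.07 and 50.5 FPKM on day 7, and it was among the 5 members whose 2 days differed most, with SNORA11B, SNORA35, SNORA71E and SNORA30. Each of these 5 had a mean of 17.6 fragments per library or fewer on both days. SNORA11 and SNORA71E had at most 14.3 and 25.1 FPKM in any library.

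The minimum level divided the rarest members. Just inside it lay SNORA70D with a mean of 1.53 FPKM, SNORA15 with 1.56, SNORA36C with 2.97, SNORA71E with 5.18 and SNORA11 with 5.37. Just outside lay SNORA70E with 0.806 FPKM, SNORA70F with 0.788 and SNORA36A with 0.678, while SNORA11C, SNORA11D, SNORA59A, SNORA59B and SNORA70C were listed at 0 in all 8 libraries. SNORA15 was above 0 in 1 library only, as was SNORA36C.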

How the data were processed

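The 8 libraries were grouped by their titles. Per the labels' protocols, they were made with the ScriptSeq v2 kit from Trizol RNA after a spike-in was added and ribosomal RNA removed. The build was hg19 (GRCh37) and the tools were CASAVA 1.8, TopHat and Cufflinks, per the submitters' processing notes. The sources used here do not state other versions, the annotation or the counting strand, so overlapping host and snoRNA reads cannot be told apart.

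The 4 deposited tables hold FPKM of 49235 RefSeq transcripts each, per the file headers. The tables also hold the authors' log2 fold change, a test score and a p-value and q-value of 1 library against 1 library, of which p and q were printed. RefSeq accessions gave gene symbols for 48147 entries. A gene was its transcript of highest mean FPKM, 164 entries with a failed or too deep estimate were left out, and a mean of 1 FPKM was required, which left 12965 genes. Log2 ratios used a pseudocount of 1 FPKM, which shrinks ratios between low FPKM. For members of 132 bases it lies below the 3.58 to 9.07 FPKM of 1 fragment, so 0 against 1 fragment still gives a large ratio. Ratios of doxycycline over untreated were formed within a table only. Differences of log2 level between days, and between lines, cross tables and used the same pseudocount. A fold against a library listed at 0 is not a measured fold.

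Fragments per library were recovered from low FPKM: values of members of 132 bases gave the FPKM of 1 fragment, and other lengths up to 160 bases were converted through an effective length 94.5 bases shorter than the transcript, at which 68.0% of 303 low values came out whole within 0.1 fragment. No count test was run, since the conversion holds for short entries only. limma 3.58.1 in R 4.3.3 (trend, Benjamini-Hochberg at 0.05 over 12965 genes) was run on the 4 ratios. Scripts used Python 3.11.15, pandas 2.3.3 and Biopython 1.88, and the statistics were tested on simulated data. GENCODE 29 (GRCh38) gave sequences for all 106 members, matched by RefSeq accession.

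Named members were the 12 of highest mean FPKM, those past an adjusted log2 difference of 1 on both days, those past 1 in shNS on both days, the 5 with the largest difference between days, the 5 on each side of the minimum level, hosts with at least 3 members, and the particle and processing genes. The members and lists were chosen with earlier results of these data known.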

Additional observations from a re-analysis of the deposited data

Results flagged for a closer look

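SNORA1 was picked out because its log2 ratio was above 0 in shEXOSC3 and below 0 in shNS on both days, with a mean difference of 3.577 between the lines. On day 5 that value rests on a library listed at 0 FPKM and depends on the pseudocount; limma's adjusted p of the difference was 0.82.

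Of the entries left out of the comparisons for a failed estimate, 2 had a signal. SNORA46 had a log2 ratio of 4.867 in shEXOSC3 on day 5, from 0 to 28.2 FPKM, and SNORA50A one of 1.503 in shEXOSC3 on day 7, from 139 to 396 FPKM. In shNS their ratios were 1.74 for SNORA46 on day 5 and -0.61 for SNORA50A on day 7. On day 7 SNORA46 had ratios of 3.61 in shEXOSC3 and 4.32 in shNS, an adjusted difference of -0.71, so its 2 days lay on opposite sides of 0. On day 5 SNORA50A was listed at 0 in both shEXOSC3 libraries and had -0.86 in shNS. Both lie within CNOT1.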

How the results depend on the processing

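The labels give no replicate numbers, and the pairing used is that of libraries within a table and of lines within a day. Of 158 recomputed values, 113 kept to the main value by the rules used and 45 moved. Only medians and EXOSC3 differences could be labelled reversed, and none (0) of them was. Counts could only keep or move, and the limma counts, 0 in every setting, are among the 113. For the 45 the cause was not tested beyond the fewer members that a filter leaves. With a pseudocount of 5 FPKM, members higher on both days went from 5 to 2, and in shNS on day 5 from 5 to 2 higher and from 9 to 5 lower. With no minimum mean the median adjusted differences were 0.29 and 0.34 on days 5 and 7. With a minimum mean of 10 FPKM (84 members) they were 0.38 and 0.42, 1 member was lower on both days, 3 were lower in shEXOSC3 on day 7, and in shNS 3 were higher on day 5 and 9 on day 7. Without members listed at 0 in any library (62 left), 1 was higher and 0 lower on both days. The counts past the 2-fold rule were then in shEXOSC3 11 higher with 3 lower (day 5) and 11 with 0 (day 7), and in shNS 2 with 4 (day 5) and 4 with 6 (day 7). Without lettered families (59 left), 0 members were lower on both days and the medians were 0.47 and 0.48. The counts were then in shEXOSC3 12 higher with 5 lower (day 5) and 12 with 3 (day 7), and in shNS 2 higher (day 5) and 6 higher (day 7).

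Restricted, after the data were seen, to the 23 members with a mean of at least 20 fragments on each day, 0 passed the 2-fold rule on both days in either direction and 13 were above 0 on both. Their medians were 0.60 and 0.23. The counts were in shEXOSC3 6 higher with 1 lower (day 5) and 2 with 0 (day 7), and in shNS 0 with 0 (day 5) and 1 with 2 (day 7). With both EXOSC3 transcripts summed, its adjusted differences were -1.11 and -0.84 in place of -1.63 and -1.37. limma called 0 members under its other settings. With day as a block, added after the data were seen, it also called 0, and 18 members (16 higher, 2 lower) had an unadjusted p under 0.05, against 3.44% of all genes. With 1 ratio left out, 1 line has a single ratio that is assumed to vary like the other line's, and the 0 calls (0 to 0) then say nothing about stability. For the same reason these fits cannot tell whether the excess of higher members seen with all 4 ratios rests on 1 of them.

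Depth limits most single members: a step of 3.58 to 9.07 FPKM per fragment makes a 2-fold difference undetectable for the rarer ones, and no setting stands in for replicate cultures.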
